A study of Mus musculus with 10 samples.

Results

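The 10 genes described here encode proteins of the skeletal muscle Z-disc and their partners. They are the α-actinins Actn2 and Actn3, the myozenins Myoz1, Myoz2 and Myoz3, the scaffold proteins Myot, Ldb3 and Tcap, the ankyrin-repeat protein Ankrd2 and the LIM protein Csrp3. They were taken as a named list, and the value of each gene was the sum of the counts of its transcripts. All 10 had counts, of 20009 genes with counts in all, and 9 of them passed the filter on low counts, as did 5115 genes in all. Csrp3 did not pass it and is given as counts.

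The Z-disc is the boundary of the sarcomere, where the thin filaments of neighbouring sarcomeres overlap and α-actinin dimers cross-link them. Myozenins, myotilin and the PDZ-LIM protein encoded by Ldb3 bind α-actinin, and telethonin, the product of Tcap, ties the ends of titin together. Several of these proteins exist in forms typical of fast or of slow and cardiac muscle, and the Z-disc is known to be thicker in slow than in fast fibres.

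Soleus, a slow-twitch calf muscle, was compared with TA (the usual short form of tibialis anterior), a fast-twitch muscle of the shin, by sequencing of total RNA. There were 5 soleus and 5 TA libraries, and in each muscle 2 came from female and 3 from male mice. All mice were wild type, and the labels gave no strain, age, treatment or pooling. The labels do not say that libraries of a group are separate animals, so p-values measure the spread between these libraries.

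Library totals ran from 726414 to 961844 counts in soleus and from 784535 to 939725 in TA. The labelled muscles matched their fibre markers: the summed level of 8 slow-fibre genes was 7255 to 9563 CPM (counts scaled to library size, with TMM factors) in soleus and 4.63 to 18.6 CPM in TA, and that of 8 fast-fibre genes was 8507 to 13320 CPM in soleus and 55150 to 81380 CPM in TA. Of the 8 slow-fibre genes 8 were higher in soleus, and of the 8 fast-fibre genes 7 were lower. The fast myosin gene Myh2 was not on the list. It had 19 and 8 counts in female and 18, 18 and 8 in male soleus libraries, against 7 and 3 in female and 6, 4 and 0 in male TA libraries. Of genes that mark other cells, 2 of 2 tested adipocyte genes (summed level of the list 27.4 to 38.1 CPM in soleus and 2.01 to 10.5 CPM in TA) and 2 of 6 tenocyte genes (276 to 1056 CPM and 156 to 704 CPM) were higher in soleus. Lower in soleus were 2 of 2 endothelial genes (179 to 261 CPM in soleus and 239 to 802 CPM in TA) and 2 of 4 of smooth muscle and pericytes (416 to 662 CPM and 602 to 1181 CPM). Of 5 fibro-adipogenic genes 1 was higher and 1 lower (152 to 9517 CPM in soleus and 258 to 3450 CPM in TA), and the 1 tested gene each of Schwann cells and macrophages was not called. The part of fibre and cell composition in the differences below was not tested, and in whole muscle fewer cells of a type and less RNA per cell cannot be told apart. The second female soleus library stood apart, with 15070 genes detected against 10971 to 11858 in the other 9 libraries. The first female TA library stood apart for several of the 10 genes, as given below. Its summed slow-fibre level of 18.6 CPM was the highest in TA, with the third male TA library at 16.2 CPM. In the first female TA library this level came from 7 counts of Tpm3, 4 of Myl3, 3 of Tnnc1 and 2 of Atp2a2. It held 0 counts of Myh7, Tnni1, Tnnt1 and Myl2, of which all TA libraries together held 2, 0, 1 and 0.

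Soleus had more RNA of Actn2, Myoz2, Ldb3, Tcap and Ankrd2 than TA, and less of Actn3, Myoz1 and Myoz3. The largest changes among the 9 genes were a 53.6-fold lower level of Actn3 and a 27.9-fold higher level of Myoz2. Myot was the one gene tested that was not called. Thus 5 of the 9 genes tested were higher in soleus and 3 were lower at an adjusted p under 0.05, where 11.0% of all 5115 genes tested were called higher and 11.0% lower. Of the 9 genes tested, all but Myot had no overlap between the 5 soleus and the 5 TA values, 5 higher in soleus and 3 lower. Over all genes tested, 7.29% had no overlap with soleus higher and 7.76% with soleus lower. Csrp3, which was not tested, also had no overlap, with at least 3 counts in each soleus library and at most 1 in each TA library.

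**Figure D1:**
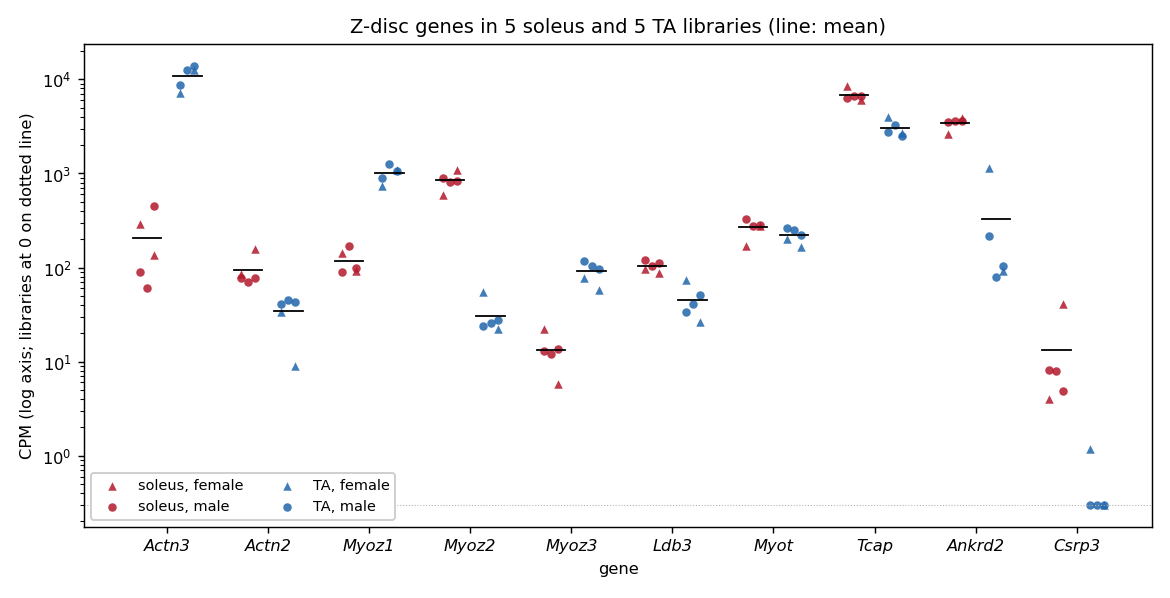
CPM of the 10 genes in each of 5 soleus (red) and 5 TA (blue) libraries on a log axis, with triangles for females, circles for males, and a line at each mean; libraries at 0 are drawn on the dotted line. The values of the 2 muscles overlap for Myot alone, and the first female TA library lies at 1152 CPM of Ankrd2, above the 79.9 to 214 CPM of the other TA libraries.

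Actn3 encodes the α-actinin of fast glycolytic fibres and lies at chr19:4861216-4877909 on the minus strand of GRCm38. It had 289.9 and 137 CPM in the female and 88.9, 60.2 and 446 CPM in the male soleus libraries, against 7231 and 12610 CPM in the female and 8706, 12480 and 13900 CPM in the male TA libraries. The lowest TA library was still far above the highest soleus library, and the soleus values themselves were spread widely, with the third male highest. Mean levels were 204 ± 162 CPM in soleus and 10990 ± 2857 CPM in TA (SD, n = 5 each), a log2 fold change of -5.74 ± 0.54 (SE, adjusted p = 9.89e-06). Without the third male soleus library the log2 fold change was -6.44 ± 0.48.

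Actn2 encodes the α-actinin found in all skeletal fibres and in the heart (chr13:12269426-12340760, minus strand). Its levels were 84.3 and 157.6 CPM in female and 77.2, 70.9 and 77.4 CPM in male soleus libraries, and 33.7 and 9.05 CPM in female and 40.6, 45.2 and 42.8 CPM in male TA libraries. Soleus was higher in every library, with the second female soleus library at the top and the second female TA library, which held 9 counts, at the bottom. Actn2 had a log2 fold change of 1.46 ± 0.36 (SE, adjusted p = 0.0116), and it was 1.19 ± 0.28 without the second female soleus library and 1.11 ± 0.24 without the second female TA library. In the second female soleus library 16 of the 138 counts of Actn2 fell on the retained-intron transcript Actn2-202, which had 0 to 2 counts in each of the other 9 libraries.

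Both actinins together show how the balance of the family differed. Actn3 took 61.7% ± 18.4 of their counts in soleus, with a range from 45.9% to 85.2%, and 99.7% ± 0.161 in TA (5 libraries each, SD). These shares are of counts and not per length, and they are given with no test. Actn2-201, which held most counts of Actn2, has 37 own 31-mers (those that no other annotated transcript holds) and Actn3-201 has 1890, so if reads were counted on such sequence alone, the shares understate Actn2 and its order with Actn3 in soleus could turn. The lowest TA share of Actn3, 99.5%, was above the highest soleus share. Of the paralogs outside muscle, Actn1 had 18 counts in soleus and 14 in TA, and Actn4 had 17 in soleus and 12 in TA, all too few for the test.

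**Figure D2:**
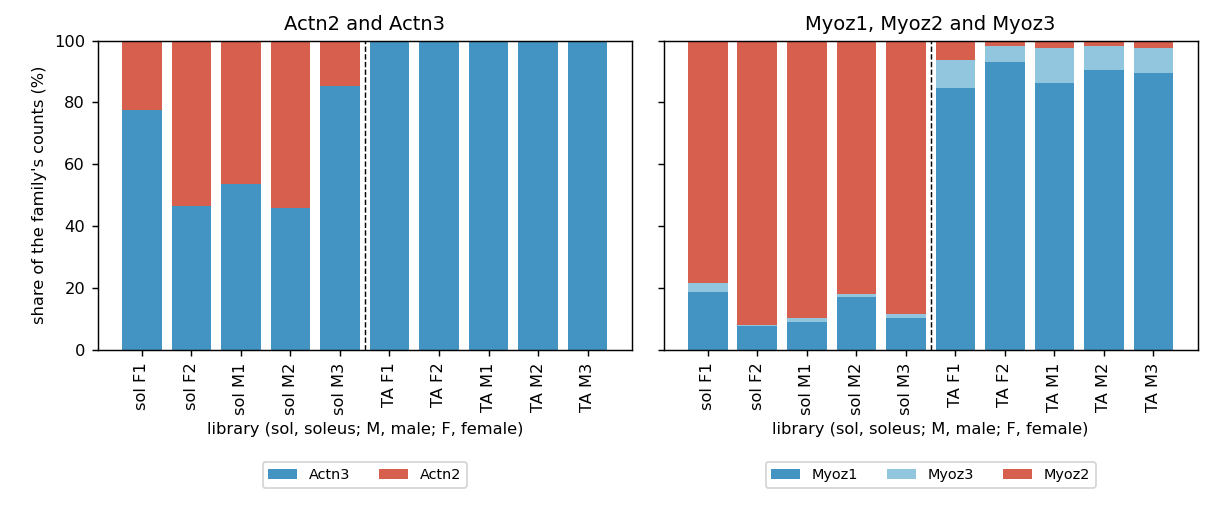
Share in percent of the counts of Actn2 plus Actn3 (left) and of Myoz1, Myoz2 and Myoz3 (right) that each gene took, 1 bar per library, with the 5 soleus libraries left of the dashed line and the 5 TA libraries right of it. Myoz2 takes 78.3% to 91.8% of the myozenin counts in soleus and 1.85% to 6.33% in TA.

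The myozenins, also called calsarcins, bind α-actinin, filamin C and calcineurin, the phosphatase that is known to promote the slow-fibre programme. Myoz2 is the form of slow and cardiac muscle, and Myoz1 and Myoz3 are forms of fast muscle. In these libraries Myoz2 was higher in soleus than in TA, and Myoz1 and Myoz3 were lower.

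Myoz2 (chr3:123006206-123035015, minus strand) had 594 and 1088 CPM in female and 895, 819 and 841 CPM in male soleus libraries, against 54.7 and 22.1 CPM in female and 23.7, 25.5 and 27.7 CPM in male TA libraries. No library of one muscle came near those of the other, and within TA the first female was the highest. The means were 847 ± 177 CPM in soleus and 30.7 ± 13.5 CPM in TA (SD, n = 5 each), with a log2 fold change of 4.80 ± 0.27 (SE, adjusted p = 1.25e-07). Without the first female TA library it was 5.07 ± 0.22.

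Myoz1 (chr14:20649107-20656540, minus strand) had 142 and 91.4 CPM in female and 88.9, 170.0 and 98.3 CPM in male soleus libraries, against 733 and 1084 CPM in female and 889, 1246 and 1060.0 CPM in male TA libraries. No soleus library came near the lowest TA library. Myoz1 thus had a log2 fold change of -3.08 ± 0.23 (SE, adjusted p = 1.74e-06). Myoz3 (chr18:60573750-60591788, minus strand) was the least abundant myozenin, with 22.4 and 5.71 CPM in female and 12.9, 12.1 and 13.5 CPM in male soleus libraries, and 76.8 and 58.3 CPM in female and 117, 104 and 97.1 CPM in male TA libraries. Its log2 fold change was -2.74 ± 0.28 (SE, adjusted p = 1.59e-05), and the lowest soleus value, of the second female, rested on 5 counts.

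Within the family, Myoz2 took 86.0% ± 5.70 of the counts in soleus and 2.94% ± 1.90 in TA, and Myoz1 took 12.5% ± 4.99 in soleus and 88.9% ± 3.33 in TA (SD over 5 libraries each). Myoz3 took 1.47% ± 0.905 in soleus and 8.21% ± 2.30 in TA. To set genes side by side, levels were also given per length of sequence that a gene's transcript shares with no other transcript. That length was counted as its own 31-mers. This scale assumes that reads were counted on such sequence alone and that counts grow with its length. The sources used here state neither, and for Tag-Seq, a 3′ method that the labels name, counts need not grow with length. Ankrd2-201 held 15499 counts with 0 own 31-mers. It does not meet the first assumption if Ankrd2-202, which had 0 counts, was in the annotation used for counting, which is not known. Levels on this scale hold only under both assumptions. On that scale, soleus had 2486 ± 530 CPM per 1000 own 31-mers of Myoz2, 200.2 ± 61.8 of Myoz1 and 4.08 ± 1.83 of Myoz3, and TA had 89.4 ± 44.0 of Myoz2, 1702 ± 334 of Myoz1 and 27.8 ± 7.14 of Myoz3. On this scale Myoz2 was the highest in soleus and Myoz1 in TA, and Myoz3 was the lowest in both muscles.

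The 3 tested transcripts of Myoz2 were all higher in soleus, with log2 fold changes of 4.84 ± 0.30 for the protein-coding Myoz2-201, 3.57 ± 0.57 for the retained-intron Myoz2-202 and 5.95 ± 0.58 for Myoz2-203, which is annotated as a target of nonsense-mediated decay (SE, adjusted p = 3.78e-07, 0.000706 and 1.32e-05). Without the second female TA library that of Myoz2-203 was 7.25. Of all 5089 transcripts tested, 12.6% were called higher in soleus and 11.7% lower. Myoz2-201 held 3274 of the 3465 Myoz2 counts in soleus and 127 of 136 in TA. The test of transcript usage, which asks whether the mix of a gene's transcripts differs, gave an adjusted p of 0.81 for Myoz2 over 227 genes, of which 7.93% were called.

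The sequence before the start site is printed for Myoz2, Ankrd2 and Csrp3, the 3 genes with the widest ratios among those higher in soleus. Each is the 250 bases before the RefSeq start site on GRCm38.p6, 5′ to 3′ on the gene's strand, at chr3:123034988-123035237 on the minus strand for Myoz2, chr19:42035777-42036026 on the plus strand for Ankrd2 and chr7:48848052-48848301 on the minus strand for the first of 2 start sites of Csrp3. Capitals mark E-boxes (CANNTG) and, in Myoz2, the MEF2 motif.
Myoz2: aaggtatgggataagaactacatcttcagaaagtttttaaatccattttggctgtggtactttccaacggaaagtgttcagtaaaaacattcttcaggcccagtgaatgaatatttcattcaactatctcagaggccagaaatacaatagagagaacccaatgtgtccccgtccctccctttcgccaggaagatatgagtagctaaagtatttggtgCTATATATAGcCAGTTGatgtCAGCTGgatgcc
Ankrd2: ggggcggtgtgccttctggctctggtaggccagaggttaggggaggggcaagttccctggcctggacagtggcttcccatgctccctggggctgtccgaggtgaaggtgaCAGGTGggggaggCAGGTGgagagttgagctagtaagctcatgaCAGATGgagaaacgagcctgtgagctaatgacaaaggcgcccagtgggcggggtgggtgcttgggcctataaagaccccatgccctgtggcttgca
Csrp3: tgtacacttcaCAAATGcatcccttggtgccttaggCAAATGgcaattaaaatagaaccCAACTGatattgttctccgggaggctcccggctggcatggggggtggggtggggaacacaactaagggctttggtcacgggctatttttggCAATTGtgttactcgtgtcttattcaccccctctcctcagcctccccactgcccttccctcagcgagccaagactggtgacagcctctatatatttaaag
Both strands were searched for the E-box, for the MCAT motif (CATTCC) and for the MEF2 motif, which are the motifs of the myogenic basic helix-loop-helix factors, the TEAD factors and the MEF2 factors. Myoz2 has a MEF2 match that begins 33 bases before the RefSeq start site, with E-boxes 22 and 12 bases before it. In the GENCODE annotation, however, Myoz2-201 begins at chr3:123035015, inside this window. Both E-boxes lie within that transcript, and the MEF2 match crosses its start. Ankrd2 has 3 E-boxes and Csrp3 has 4, and none of the 3 genes has an MCAT match in this window. Over the same window of 27025 genes, 66.0% hold an E-box, 12.6% an MCAT match and 3.01% a MEF2 match. A match is a match of letters and no measured binding.

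The 3 genes of scaffold proteins had smaller fold changes than Actn3 and the myozenins. Tcap, whose product telethonin caps titin at the Z-disc (chr11:98383811-98384953, plus strand), had 8458 and 6065 CPM in female and 6308, 6579 and 6646 CPM in male soleus libraries, against 3934 and 2674 CPM in female and 2729, 3251 and 2485 CPM in male TA libraries. The first female library was the highest in both muscles, and the muscles did not overlap. The log2 fold change was 1.18 ± 0.16 (SE, adjusted p = 0.000155), from 27447 counts in soleus and 13416 in TA. Per 1000 own 31-mers, Tcap had 7419 ± 1034 CPM in soleus and 3284 ± 640 CPM in TA (SD over 5 libraries), against 108 ± 85.4 CPM of Actn3 in soleus and 5812 ± 1512 CPM of Actn3 in TA.

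Ldb3 encodes cypher, also called ZASP, a PDZ-LIM protein that binds α-actinin and myozenins (chr14:34526603-34588682, minus strand). It had 96.2 and 87.9 CPM in female and 122, 103 and 111 CPM in male soleus libraries, against 74.5 and 26.1 CPM in female and 33.8, 40.5 and 50.9 CPM in male TA libraries. Every soleus value was above every TA value, and the first female TA library came closest to soleus. The log2 fold change was 1.20 ± 0.25 (SE, adjusted p = 0.0038), and 1.50 ± 0.18 without the first female TA library.

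Of the 2 tested transcripts of Ldb3, Ldb3-204 was called and Ldb3-207 was not. Ldb3-204 had 57 and 66 counts in female and 95, 65 and 80 counts in male soleus libraries, against 48 and 17 counts in female and 20, 19 and 26 counts in male TA libraries. Its log2 fold change was 1.63 ± 0.28 (SE, adjusted p = 0.00128). Ldb3-207 had 14 and 11 counts in female and 7, 11 and 7 counts in male soleus libraries, and 13 and 7 in female and 9, 12 and 15 in male TA libraries, and its log2 fold change was -0.01 ± 0.34 (SE, adjusted p = 0.99). Ldb3-204 held 85.7% ± 5.04 of the gene's counts in soleus and 64.1% ± 7.88 in TA (SD over 5 libraries each), with a lowest soleus share of 78.1% and a highest TA share of 75.0%. The test of transcript usage gave an adjusted p of 0.0783 for Ldb3 over 227 genes, which misses the threshold, with a range of 0.0343 to 0.236 when 1 library was left out. It was 0.0354 without the first and 0.0343 without the second female soleus library.

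If reads were counted only where a transcript is unique, the counts of Ldb3-204 rest on 27 own 31-mers and those of Ldb3-207 on 29, so that their ratio within a library is not a ratio of molecules. The comparison of 1 transcript between the muscles does not carry that limit.

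**Figure D3:**
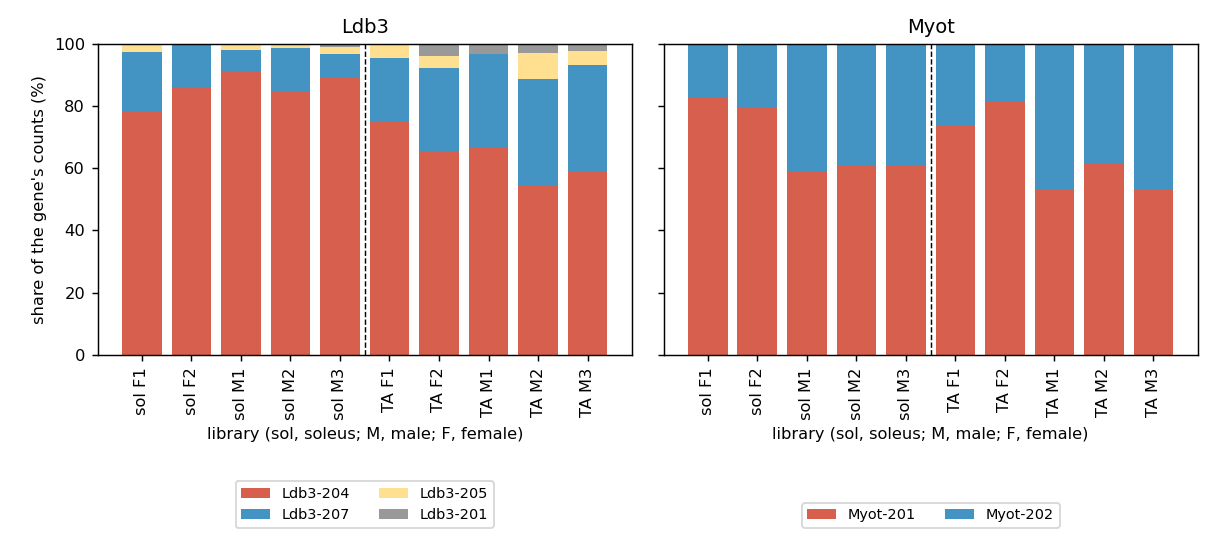
Share in percent of each gene's counts on the transcripts of Ldb3 (left) and Myot (right), 1 bar per library, with soleus libraries left of the dashed line and TA libraries right of it. Ldb3-204 takes 78.1% to 91.3% in soleus and 54.3% to 75.0% in TA, and Myot-202 takes 17.2% to 26.2% in female and 38.5% to 46.9% in male libraries of both muscles.

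Myot encodes myotilin, which binds α-actinin, filamin C and actin (chr18:44334074-44355724, plus strand). It had 169 and 275 CPM in female and 329.8, 277 and 284 CPM in male soleus libraries, and 200.1 and 166 CPM in female and 262, 252 and 224 CPM in male TA libraries. The muscles overlapped, the log2 fold change was 0.27 ± 0.15 (SE), and the adjusted p of 0.233 missed the threshold. Leaving out 1 library at a time gave log2 fold changes of 0.18 to 0.33, none of them called.

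The transcript Myot-202 was lower in females in both muscles, a pattern that was picked after its counts were seen. Myot-202 had 22 and 50 counts in female soleus and 45 and 31 in female TA libraries, against 116, 81 and 90 counts in male soleus and 108, 84 and 91 in male TA libraries. Every female library was below every male library in both muscles. The log2 fold change of Myot-202, female over male with muscle as a covariate, was -1.40 ± 0.22 (SE, adjusted p = 0.00555 over 5089 transcripts, of which 4.19% were called). Myot-201 had a log2 fold change of 0.03 ± 0.16 (SE, adjusted p = 0.952) between the sexes. Soleus over TA, Myot-201 had 0.38 ± 0.15 (SE, adjusted p = 0.0954), and it was called without the first female soleus library (0.45, adjusted p = 0.0412). The share of Myot-202 was 20.7% ± 3.91 in females (SD, n = 4) and 41.9% ± 3.87 in males (SD, n = 6), but the test of transcript usage by sex gave an adjusted p of 0.0692 for Myot over 227 genes. It was 0.0451 without the first and 0.0427 without the second female soleus library, and up to 0.314 without others, and without the first female soleus library 613 transcripts were called between the sexes. If a replicate number stands for 1 mouse, these values rest on 2 females and 3 males. The tests by sex took all libraries as separate, so their SEs and p-values would then likely be too small. The own 31-mers of both transcripts lie before the coding start, 29 in Myot-202 and 151 in Myot-201.

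Ankrd2 encodes a muscle ankyrin-repeat protein that binds telethonin and titin and moves between the sarcomere and the nucleus in stretched muscle (chr19:42036000-42045110, plus strand). It had 2641 and 3931 CPM in female and 3527, 3575 and 3608 CPM in male soleus libraries, against 1152 and 92.5 CPM in female and 214, 79.9 and 103 CPM in male TA libraries. The soleus libraries were close together, with a coefficient of variation of 14.0%, and the TA libraries were not, at 141%, with the first female far above the others. The log2 fold change was 3.81 ± 0.66 (SE, adjusted p = 0.00134), and 4.84 ± 0.30 without the first female TA library. That library was also the highest in TA for Myoz2, Ldb3 and Tcap and the lowest for Actn3 and Myoz1. Its summed slow-fibre level was 18.6 CPM, the top of the TA range. Its counts of Tpm3 (7), Tnnc1 (3) and Atp2a2 (2) were the highest in TA, and its 4 counts of Myl3 were not. It had 0 counts of Myh7, Tnni1, Tnnt1 and Myl2, of which all TA libraries together held 2, 0, 1 and 0. The third male TA library, at 16.2 CPM of slow-fibre genes, had 103 CPM of Ankrd2. The part of the fibre markers in these values was not tested. All 15499 counts of Ankrd2 fell on Ankrd2-201, which has no 31-mer that Ankrd2-202 lacks.

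Csrp3 encodes the muscle LIM protein, which binds α-actinin and telethonin and is known from slow and cardiac muscle (chr7:48830398-48848033, minus strand). It had 3 and 36 counts in female and 7, 6 and 4 counts in male soleus libraries, against 1 and 0 counts in the female TA libraries and 0 counts in all 3 male TA libraries. All 5 soleus libraries were above all TA libraries, and 36 of the 56 soleus counts came from the second female. The ratio of the summed levels was 61.8 (95% exact interval 10.6 to 2483, which covers counting error only), and 28.2 without the second female soleus library. Without the first female TA library, TA held 0 counts, and soleus was at least 16.6-fold higher against a floor of 3 counts over the other 4 TA libraries. Of the soleus counts, 25 fell on the retained-intron transcript Csrp3-204, 19 of them in the second female, and with protein-coding transcripts alone the counts were 31 in soleus and 1 in TA, a ratio of 34.2 (95% exact interval 5.70 to 1394). With no filter on low counts, the fitted log2 fold change was 5.13 ± 0.76 (SE, adjusted p = 1.51e-09), a value that depends on the prior count and is no bound. In that fit the SE of Actn3 was 0.20, against 0.54 in the main fit, and that of Ankrd2 was 0.21, against 0.66. Those of Tcap and Myot were larger than in the main fit. The p-values of that fit are thus not comparable with those of the main fit.

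Csrp3, Actn2 and Myoz2 are also genes of the heart, so markers of heart muscle are given beside them. Of 6 listed, Myl7, Nppb and Tnni3 had no count in any library, Nppa had 0 counts in soleus and 1 in TA, and Tnnt2 had 3 counts in soleus and 0 in TA. Myh6 had 157 counts in soleus and 1 in TA. The summed level of the 6 was 16.4 to 60.2 CPM in soleus and 0 to 1.16 CPM in TA. Retained-intron transcripts took 8.21% of all counts in the second female soleus library, against 4.80% to 7.25% in the other 9 libraries, and with protein-coding transcripts alone Actn2 had a log2 fold change of 1.45 (adjusted p = 0.00783).

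The difference between the muscles was also taken within each sex. In females 6 of the 9 genes tested were called, where 7.92% of all genes were, and in males 7 were called, where 13.5% of all genes were. Actn3, Myoz1, Myoz2, Myoz3 and Tcap were called in both sexes, with log2 fold changes in females and in males of -5.54 and -5.88 for Actn3, -2.96 and -3.16 for Myoz1, 4.46 and 5.05 for Myoz2, -2.29 and -3.04 for Myoz3, and 1.14 and 1.21 for Tcap. In females, without the first female soleus library Actn3 was at -6.27 and Myoz3 at -3.62, without the second Myoz3 was at -1.54, and without the first female TA library Myoz2 was at 5.16. In males Actn3 was at -7.28 without the third male soleus library. Without the second female TA library Tcap was not called in females (adjusted p = 0.14).

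Actn2, Ldb3 and Ankrd2 were each called in 1 sex, and Myot in neither. Actn2 had a log2 fold change of 2.53 ± 0.45 in females (SE, adjusted p = 0.00649) and 0.81 ± 0.35 in males (adjusted p = 0.16), and in females it was 3.65 without the first and 1.83 without the second female TA library. Ldb3 had 0.88 ± 0.38 in females (SE, adjusted p = 0.184) and 1.42 ± 0.31 in males (adjusted p = 0.011), and it was called in females without the first female TA library (1.75, adjusted p = 0.0139) and not in males without the first male TA library (adjusted p = 0.0562) or the second (adjusted p = 0.0513). Ankrd2 had 2.40 ± 0.81 in females (SE, adjusted p = 0.0962) and 4.75 ± 0.74 in males (adjusted p = 0.00132), and in females without the first female TA library it had 5.08 ± 0.60 (adjusted p = 0.0008). It was also called in females without the first female soleus library (2.58, adjusted p = 0.0367), and had 1.50 without the second female TA library (adjusted p = 0.149).

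The difference between the sexes in these changes was tested as an interaction, for which 0% of genes were called by edgeR and 351 had an unadjusted p under 0.05. Among the 9 genes, Actn2 had an interaction of 1.72 ± 0.57 (SE, log2, female minus male, unadjusted p = 0.0115, adjusted p = 0.654), which was 2.85 without the first and 1.02 without the second female TA library. Ankrd2 had -2.35 ± 1.02 (SE, unadjusted p = 0.0412, adjusted p = 0.711), and it was 0.34 without the first and -3.25 without the second female TA library. None of the 9 genes was called between female and male in soleus, where 0.547% of genes were, or in TA, where 0.645% were. In TA, Ankrd2 (2.23 ± 0.72, unadjusted p = 0.00958) and Actn2 (-1.03 ± 0.44, unadjusted p = 0.0389) had the 2 unadjusted p-values under 0.05, and in soleus there were 0. Ankrd2 in TA, female over male, was 3.09 without the second female TA library, which was called (adjusted p = 0.0229), and -0.52 without the first (adjusted p = 0.745). Actn2 in TA, female over male, was -2.23 without the first (adjusted p = 0.0574) and -0.37 without the second (adjusted p = 0.938). Without the first female soleus library 79 genes were called in the interaction and 1022 between female and male in soleus, 1 of them a member.

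**Figure D4:**
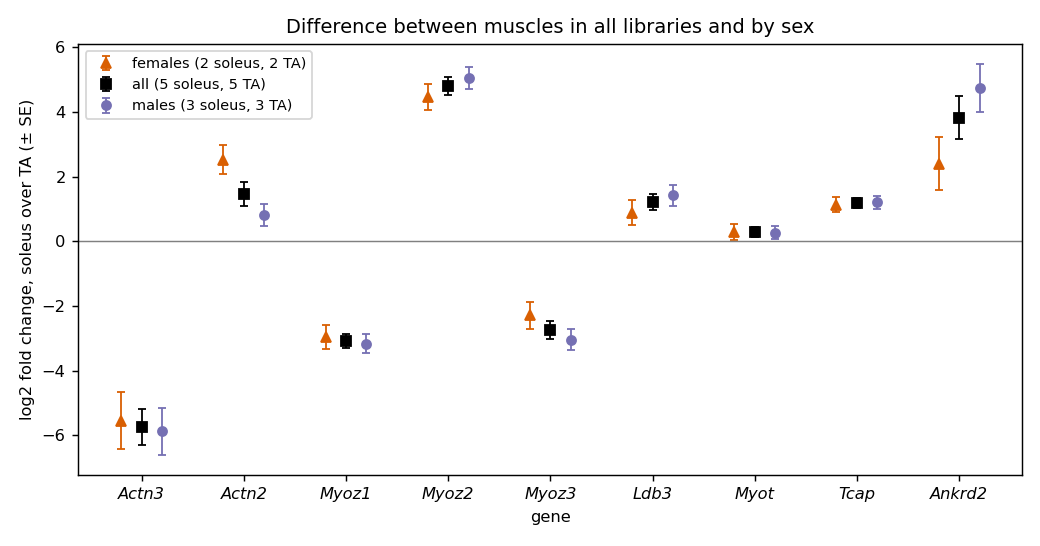
Log2 fold change of soleus over TA with its SE for the 9 genes tested, in females (triangles), in all libraries (squares) and in males (circles). Females and males lie on the same side of 0 for all 9 genes, and Actn2 (2.53 in females, 0.81 in males) and Ankrd2 (2.40 in females, 4.75 in males) lie farthest apart.

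The 40 other genes of the Z-disc, listed for comparison, moved in both directions. Of the 29 tested, 9 were higher in soleus and 4 were lower, with a median log2 fold change of 0.34 against 0.01 over all genes tested. Without the second female soleus library 8 were higher and 4 lower, and the median was 0.15. The called genes with the smallest p were Ky, Fhl2, Plec and Bag3. Ky, which encodes a Z-disc protein that binds filamin C, had 51.5 ± 20.0 CPM in soleus and 410.2 ± 122 CPM in TA (SD, n = 5 each), a log2 fold change of -2.97 ± 0.25 (SE, adjusted p = 4.23e-06). Fhl2, a LIM protein best known from the heart, had 26.3 ± 5.45 CPM in soleus and 1.13 ± 0.822 CPM in TA, a log2 fold change of 4.37 ± 0.41 (adjusted p = 8.74e-06). Plec, the cytolinker plectin, had a log2 fold change of 1.62 ± 0.21 (adjusted p = 0.000147), and Bag3, a co-chaperone in the turnover of Z-disc proteins, had 1.03 ± 0.15 (adjusted p = 0.00032). Titin, nebulin and myopalladin, large proteins that end or anchor at the Z-disc, were not called, with log2 fold changes of -0.37 ± 0.19 for Ttn, -0.11 ± 0.12 for Neb and 0.12 ± 0.12 for Mypn (SE, adjusted p = 0.206, 0.575 and 0.559), and were named here after their values were seen.

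**Figure D5:**
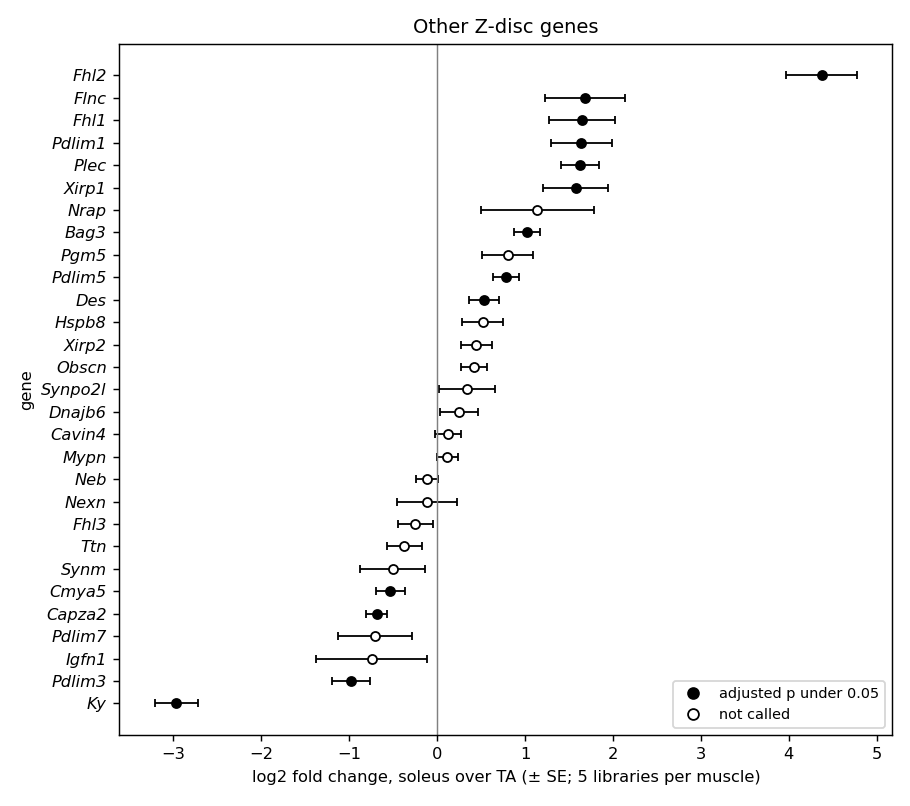
Log2 fold change of soleus over TA with its SE (5 libraries per muscle) for the 29 other Z-disc genes tested, with filled points for an adjusted p under 0.05. Fhl2 at 4.37 and Ky at -2.97 stand at the ends, and the remaining 27 lie between.

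Of 6 paralogs of the members, Ankrd1 and Ankrd23 were tested, and neither was called by edgeR (unadjusted p = 0.55 for Ankrd1 and 0.291 for Ankrd23). Ankrd1 had a log2 fold change of 0.41 ± 0.67 and Ankrd23 of -0.28 ± 0.25 (SE, adjusted p = 0.722 and 0.491). Ankrd1, whose product is known to respond to load and injury of muscle, had 63.3 and 1631 CPM in female and 88.9, 56.2 and 57.8 CPM in male soleus libraries, against 182 and 433.6 CPM in female and 97.0, 59.1 and 113 CPM in male TA libraries. The second female soleus library was far above the other 9, and without it the log2 fold change of Ankrd1 was -0.92 ± 0.37 (adjusted p = 0.0974). Csrp1 had 5 counts in soleus and 7 in TA, and Csrp2 had 1 in each.

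Genes of calcineurin, the phosphatase that myozenins bind, were counted as well. Of 9 tested, 2 were higher and 2 lower in soleus, with a median of -0.18. Rcan1, an inhibitor of calcineurin and a target of its signalling, had 30.3 and 204 CPM in female and 19.9, 10.7 and 36.9 CPM in male soleus libraries, against 1.16 and 7.04 CPM in the female and 0 CPM in the 3 male TA libraries. Its log2 fold change was 5.11 ± 0.77 (SE, adjusted p = 0.000447), and 3.97 ± 0.65 without the second female soleus library and 6.73 ± 1.02 without the second female TA library. Rcan2, a second inhibitor, had 1.16 ± 0.30 (SE, adjusted p = 0.0144). The subunits Ppp3r1 and Ppp3ca were lower in soleus, at -0.83 ± 0.12 and -1.01 ± 0.15 (SE, adjusted p = 0.000244 and 0.000515).

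For 4 of the genes, those whose profiles over the 10 libraries were most alike were found as the smallest root mean square difference of centred log2 CPM over 4850 genes, as a description. Closest to Actn3 were Pvalb (0.77), which encodes the calcium buffer of fast fibres, Tmem233 (1.03) and the potassium channel gene Kcnc4 (1.04). Closest to Myoz1 were Phkg1 (0.38), a subunit of phosphorylase kinase, the transcription factor gene Maf (0.38) and the M-band gene Myom2 (0.40). Closest to Myoz2 were the slow troponin gene Tnnt1 (0.43), Xpo4 (0.47) and Rp1 (0.49). Closest to Ankrd2 were Rp1 (0.74), Myoz2 (0.78) and Ostn (0.78), which encodes a peptide secreted by muscle. The log2 CPM held a prior count of 2, which narrows differences for genes near 0 counts in a muscle. Tnnt1, at a mean of 0.232 CPM in TA, had a log2 fold change of 7.74, against 4.80 for Myoz2. Pvalb, at a mean of 1.265 CPM in soleus, had -6.64, against -5.74 for Actn3. The lowest TA value of Rp1 and of Ostn was 0 CPM.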

How the data were processed

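Each of the 10 deposited files, 1 per library, gives for every listed Ensembl transcript its count of reads, not normalized. Per the labels' protocols, total RNA of whole soleus or TA went into libraries that are named both Tag-Seq, a 3′ method, and Takara SMART-Seq Stranded, and which of them shaped the coverage is not stated. Per the submitters' processing notes, bcl2fastq, Trimmomatic 0.32 and FastQC were used with the build GRCm38.p4. Aligner and counter are not given in the sources used here. Transcripts were matched by identifier to the GENCODE annotation of GRCm38 (40359 of 40414, the other 55 left out) and summed to genes. On Gm20594, which resembles mitochondrial ribosomal RNA, fell 22.1% to 28.4% of counts in soleus and 17.2% to 20.9% in TA, and on Cep295 3.85% to 6.26% over both muscles. Outside both genes, libraries held 513984 to 632144 counts in soleus and 611106 to 696675 in TA.

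Counts were tested in R 4.3.3 with edgeR 4.0.16: filterByExpr by the 4 groups of muscle and sex, TMM scaling, and a quasi-likelihood test of muscle that took sex into the model, adjusted by Benjamini-Hochberg over all genes tested, threshold 0.05. Contrasts within sex came from a model with 1 mean per group. Transcripts were tested likewise, and transcript usage with diffSpliceDGE. A transcript's own 31-mers are those that no other transcript of the GENCODE annotation holds. Whether reads were counted on that annotation is not stated, so the own 31-mers under counting may differ. Alternatives used DESeq2 1.42.0, other scalings and filters, a replicate block, and leaving out each library. The scripts were tested on simulated libraries of these sizes. For genes, 32 of 100 2-fold and 82 of 100 4-fold changes were recovered, with 8 false calls among 122. For transcript usage, 12 of 50 2-fold and 40 of 50 4-fold changes were recovered, with 1 false call among 53. A gene that was not called may thus still differ 2-fold. Tables and plots were made in Python 3.11.15.

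Soleus and TA libraries with the same sex and number were checked for pairing: after removal of group means with limma 3.58.1, their correlations over genes were 0.229, 0.183 and 0.239 in males and 0.285 in females, where both pairs give the same value by construction. Every value was over 0.1, so the numbers were taken to pair the samples for a block that was run as an alternative only. The main fit held no block. Libraries with unlike numbers were not compared, so these correlations do not show the pairing.

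The members and the lists of other genes were chosen with earlier results of these data known. Named besides the members are up to 4 called genes of smallest p per list, paralogs of members and, for 4 members, the 3 genes with the nearest profiles, where Csrp3 had none because it was not tested. Promoters of 5 members were taken from the RefSeq table of GRCm38.p6, and chromosome 18, where Myoz3 and Myot lie, was left out. Intervals and floors cover counting error only.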

Additional observations from a re-analysis of the deposited data

Results flagged for a closer look

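In each muscle the 5 libraries were checked for a highest or lowest value that stood far from the nearest of the others, for the 10 members and the 23 other named genes. Of 66 groups 17 held such a value, and 6 of those were among the 20 groups of members. Chance gives such a value in about 1 in 20 groups, a rate that cannot be set against these counts, since Xirp1, Flnc and Nrap were named after their values were seen and Csrp3 and Tnnt1 in TA rest on 1 count beside libraries at 0.

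The second female soleus library gave 8 of them. It held 157.6 CPM of Actn2 with the next soleus library at 84.3 CPM, and 41.1 CPM of Csrp3 with the next at 8.19 CPM. It also held 1631 CPM of Ankrd1 (next 88.9 CPM), 6009 CPM of Xirp1 (next 1332 CPM), 117.6 CPM of Flnc (next 31.6 CPM), 90.2 CPM of Nrap (next 7.91 CPM), 204 CPM of Rcan1 (next 36.9 CPM) and 843 CPM of Bag3 (next 582 CPM).

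The first female TA library held 1152 CPM of Ankrd2 with the next TA library at 214 CPM, 54.7 CPM of Myoz2 with the next at 27.7 CPM, and 14.0 CPM of Ostn with the next at 2.25 CPM. It also held the single count of Csrp3 in TA, at 1.16 CPM. In the second female TA library Rcan1 was at 7.04 CPM, with the next at 1.16 CPM.

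In the first female soleus library Tcap was at 8458 CPM with the next at 6646 CPM, and Tmem233 was at 17.1 CPM with the next at 5.85 CPM. In the second male TA library Phkg1 was at 375 CPM with the next at 328 CPM, and Tnnt1 was at 1.16 CPM from 1 count with the others at 0.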

How the results depend on the processing

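Under RLE and upper-quartile scaling, DESeq2, 2 other filters, library sizes without mitochondrial genes, protein-coding transcripts alone, the replicate block and no sex covariate, the 8 called members kept direction and call, as they did without each library in turn. Where a filter let Csrp3 in, it was called higher, which made 6 higher members. It could pass a filter through its soleus counts alone, so the direction of that call was fixed beforehand and is no support. With the replicate block, on the pairing assumed above, 1207 genes were called, 621 higher and 586 lower, and the block changed no call of a member. With it the log2 fold change was 4.35 ± 0.58 for Ankrd2, against 3.81 in the main fit, and -6.04 ± 0.44 for Actn3, against -5.74 (SE). Leaving out 1 library, with a group of 1 taken to vary like the others, gave 154 to 1277 genes called within females and 428 to 953 within males, 0 to 79 in the interaction, 1 to 1022 for female over male in soleus (members 0 to 1) and 1 to 162 in TA (members 0 to 1), 101 to 613 transcripts and 0 to 24 genes of transcript usage by sex (tests added after seeing the data), and 12 to 41 genes of transcript usage by muscle. The highest of each of these gene and transcript counts came without the first female soleus library, and the cause was not tested. Signs turned for Myot in females (-0.0747 to 0.4975), for Ankrd2 in the interaction (-3.25 to 0.34) and in female over male TA (-0.52 to 3.09), and for the uncalled Ldb3-207 (-0.26 to 0.14, 0.006245 under RLE and 0.00272 with the replicate block). The log2 fold change of Myot-202, female over male, stayed at -1.61 to -1.26 and was called without each library, in a test that took the libraries as separate animals. Counts of 9 for Actn2 in 1 TA library and of 5 for Myoz3 in 1 soleus library limit those genes.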

Other observations

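Ankrd1, Nrap and Rcan1 were highest, within each muscle, in the library labelled female 2. Ankrd1 was at 1631 CPM in that soleus library against 56.2 to 88.9 CPM in the other 4, and at 433.6 CPM in that TA library against 59.1 to 182 CPM in the other 4. Nrap, which encodes a protein of forming myofibrils, was at 90.2 CPM against 3.69 to 7.91 CPM in soleus, and at 26.1 CPM against 1.13 to 11.6 CPM in TA. Rcan1 was at 204 CPM against 10.7 to 36.9 CPM in soleus, and at 7.04 CPM against 0 to 1.16 CPM in TA. Flnc, the gene of filamin C, was highest in that soleus library but lowest in that TA library, at 6.04 CPM. Xirp1 was highest in TA in female 1, at 1729 CPM, with female 2 at 1488 CPM and the 3 males at 237.5 to 416 CPM. These genes were picked after their values were seen, and no test was run. That a replicate number is 1 mouse was assumed from the correlation of the libraries, which does not show it, and from no label.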
